A study of Homo sapiens with 6 samples.

Results

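The 10 genes described here encode the KEAP1-NRF2 switch and its direct partners: KEAP1, CUL3, RBX1, SQSTM1, NFE2L2, NFE2L1, BACH1, MAFG, MAFK and MAFF. They were taken by symbol from a matrix of 58884 genes, and each symbol stood on 1 row. All 10 passed the filter on low values, a mean of 10 normalized counts, which left 16701 genes to test. KYSE450 is a human esophageal squamous cell carcinoma (ESCC) line with wild-type NRF2. KEAP1null-KYSE450 is 1 monoclonal line made from it with CRISPR-Cas9 and a guide against exon 2 of KEAP1. Both untreated lines were measured by RNA sequencing of total RNA, with 3 libraries per line. With a single clone, the loss of KEAP1 and any other difference between clone and parent cannot be told apart.

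KEAP1 is the adaptor that holds NRF2, the product of NFE2L2, on a CUL3-RBX1 ubiquitin ligase, so that NRF2 is degraded in unstressed cells. SQSTM1 (p62) binds KEAP1 and carries it to autophagosomes. NRF2 that escapes pairs with a small MAF protein (MAFF, MAFG or MAFK) on antioxidant response elements, where BACH1 competes as a repressor with the same small MAF partners. NFE2L1 encodes NRF1, a relative of NRF2 that sits in the endoplasmic reticulum and drives proteasome genes. KEAP1 acts on the stability of the NRF2 protein, which these mRNA counts do not show.

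The mRNAs of this switch did not move together. In KEAP1null-KYSE450 cells SQSTM1 (3.27-fold), MAFG (2.25-fold) and BACH1 (1.78-fold) rose. NFE2L1, MAFF, MAFK, NFE2L2 and CUL3 fell, to between 0.42 and 0.79 of their KYSE450 means. KEAP1 and RBX1 did not pass the test. In all, 8 of the 10 genes changed (adjusted p under 0.05, limma with Benjamini-Hochberg adjustment over all genes tested), against 49.8% of all genes tested (24.3% higher and 25.5% lower). SQSTM1 and MAFG also passed a log2 fold change of 1 upwards, as did 12.2% of all genes, and NFE2L1 and MAFF downwards, as did 5.98%, for 4 of 10 against 18.2% in all. The same 8 genes had no overlap between the libraries of the lines, which held for 57.8% of all genes (28.4% higher and 29.3% lower). No test was made of the 10 genes as a group.

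Libraries are numbered by their listed order within a line, because the columns name the line and no replicate. Values are normalized counts and summed to between 54829313 and 57380170 per library. In 4 of the 6 libraries they equal read counts divided by 1 factor per library, and for the others this was not shown. At this depth 3 reads correspond to at most 3.21 normalized counts, and all 10 genes lay above 100 in every library. Nothing in the labels says that libraries of one line came from separate cultures, so p-values measure the spread between these libraries, which may be technical. The first listed library of each line deviated from its line's mean in the same way, with a correlation of these deviations of 0.50 across 12341 genes, which are not independent replicates, against 0.20 for the second and 0.33 for the third listed. In both, the deviation rose with exon length (Spearman's rho 0.29), so RBX1, NFE2L1 and MAFK are given with and without these libraries. The first listed library stood apart in both lines for RBX1 and NFE2L1, and for MAFK and CUL3 only in KYSE450. SQSTM1, KEAP1, CUL3 and BACH1 were also highest in the first listed library of both lines. CUL3 kept an adjusted p under 0.05 in limma without both first listed libraries. For SQSTM1 the range over all settings is given at the end. Mitochondrially encoded genes took 2.04% to 2.83% of KYSE450 counts and 3.92% to 4.65% of KEAP1null-KYSE450 counts. All 11 squamous markers had a mean of at least 10; 3 rose and 7 fell. KRT5 rose from 208100 to 568250 normalized counts and carried the sum of the list, while KRT6A fell from 71578 to 2738, KRT17 from 50937 to 1763 and KRT14 from 2401 to 34.5. TP63 fell from 21769 to 14376 and EPCAM (28963 and 28559) did not pass the test, and both lay well above the floor in both lines. All 5 blood cell markers and 5 of 6 fibroblast markers had a mean under 10, the exception being COL1A1 (701 and 388 normalized counts). Of 4 endothelial markers, PECAM1 was at 0 in every library and the list summed to at most 74.8 in any library. In bulk RNA, a lower level in every cell and a loss from some cells cannot be told apart.

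**Figure D1:**
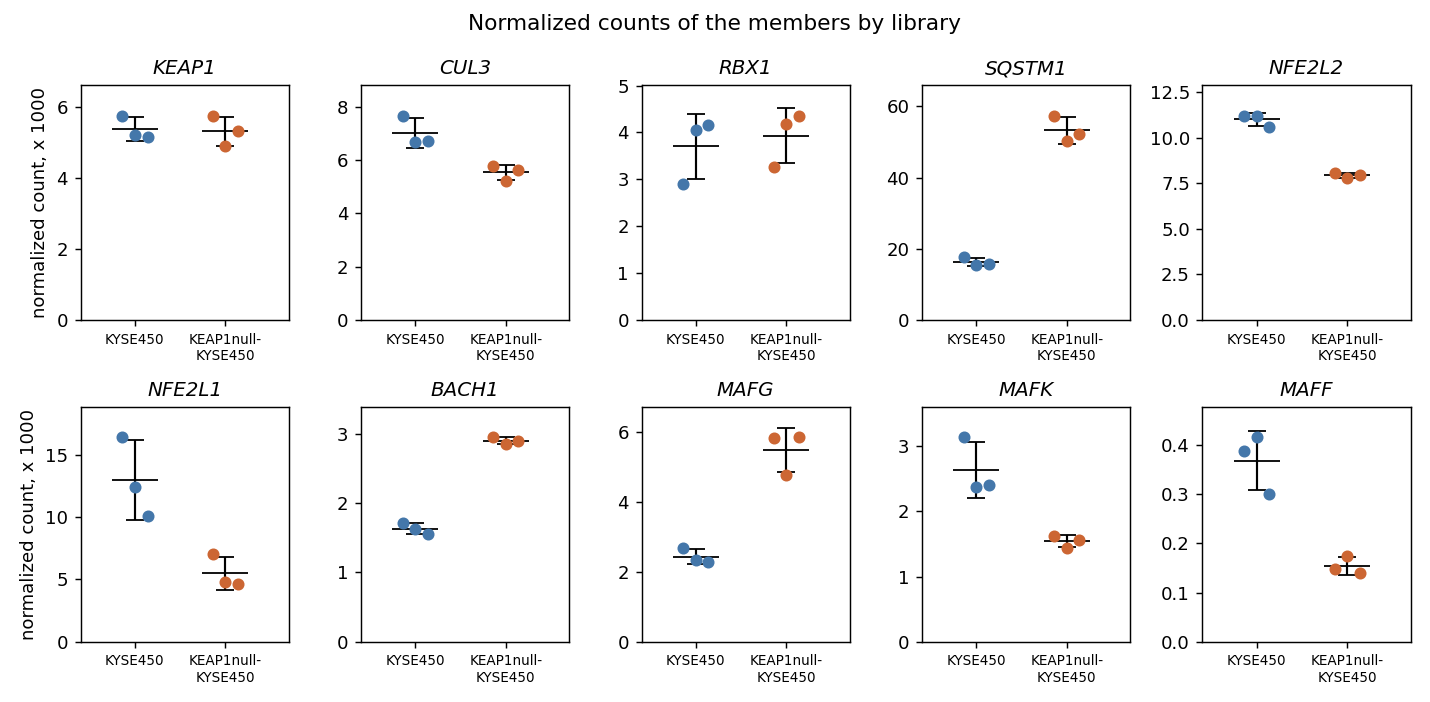
Normalized counts (in units of 1000, from 0) of each gene in the 3 KYSE450 libraries (blue) and the 3 KEAP1null-KYSE450 libraries (orange), drawn in listed order, with the mean and SD of each line in black. SQSTM1, MAFG and BACH1 lie higher in all KEAP1null-KYSE450 libraries, NFE2L1, MAFF, MAFK, NFE2L2 and CUL3 lie lower, and KEAP1 and RBX1 overlap.

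Before the values, the sequences at which NRF2-MAF and BACH1-MAF pairs could bind near these genes are shown. The motif searched was TGACTCAGC, a strong form of the antioxidant response element that also holds the AP-1 site TGACTCA, on both strands of hg38 within 2000 bases on each side of the start of the MANE Select transcript. The motif was chosen after the values were seen. It occurred near 4.56% of 19061 protein-coding genes and near 4 of the 10 genes: SQSTM1, MAFG, BACH1 and MAFK. The matches are printed 5′ to 3′ on the strand that holds the motif, with the motif in capitals and 10 bases on each side.
SQSTM1, 348 bases upstream of the start, chr5:179820543-179820571, minus strand: ggcctggccaTGACTCAGCaatatcctca
SQSTM1, 1316 bases upstream of the start, chr5:179819575-179819603, minus strand: tggccaagcgTGACTCAGCagcccaggcg
MAFG, intron 1, 764 bases downstream of the start, chr17:81926957-81926985, plus strand: ctcacgctgaTGACTCAGCaagtctccct
BACH1, intron 1, 1398 bases downstream of the start, chr21:29300306-29300334, minus strand: ctggggcgaaTGACTCAGCaacccaactt
MAFK, intron 1, 278 bases downstream of the start, chr7:1530966-1530994, minus strand: caggcggccgTGACTCAGCggccaggtag

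The 3 genes of the switch that rose all held a match, and so did MAFK, which fell. The bases after the motif differed among them: in SQSTM1, MAFG and BACH1 the motif was followed directly by an A, as in the usual longer form of the element, and in MAFK it was not. This difference was read with the values known, and its share among all genes was not computed. A looser form with that A also lay near KEAP1, NFE2L2 and CUL3, which did not rise. MAFG held a further match in intron 1 at 4114 bases from the start, and no other gene of the switch gained one when the window was widened to 5000 bases on each side, where 11.6% of all genes held a match. Among genes tested in these cells, 29.1% of the 578 with a match within 2000 bases rose and 27.3% fell. Without a match, 21.1% of 12131 genes rose and 31.3% fell.

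NFE2L2 and KEAP1 held no TGACTCAGC but did hold the looser form TGACNNNGC followed by an A, in which N is any base and which also covers most matches above. This form occurs near 33.3% of all genes within 2000 bases. Among genes tested in these cells, 22.4% of the 4165 with this form rose and 30.2% fell. Without this form, 21% of 8544 genes rose and 31.6% fell, so the shares hardly differed. With both strands searched, it was found near KEAP1, NFE2L2, CUL3, SQSTM1, MAFG and BACH1, and near all 10 genes (68.6% of all genes) within 5000 bases. The matches in the first introns of NFE2L2 and KEAP1 are shown because NRF2 is known to act on its own gene, with the motif in capitals and again on the strand that holds it.
NFE2L2, intron 1, 650 bases downstream of the start, chr2:177264063-177264092, plus strand: agcggccccgTGACTAGGCAcatttttgcc
NFE2L2, intron 1, 790 bases downstream of the start, chr2:177263923-177263952, plus strand: gagagatggaTGACTTCGCAaagccgcgcc
KEAP1, intron 1, 558 bases downstream of the start, chr19:10502784-10502813, plus strand: caggtcaccaTGACTAAGCAgagccgggcg
A match describes these letters in the reference genome and is no evidence of binding, and binding was not measured in these libraries.

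KEAP1 (chromosome 19 from 10486125 to 10503558 in hg38, minus strand), the gene targeted in the clone, was read at 5760.4, 5226 and 5146 normalized counts in KYSE450 and 5737, 4907 and 5317 in KEAP1null-KYSE450 libraries. The libraries of the lines overlapped. The log2 fold change was -0.017 (95% interval -0.22 to 0.19, adjusted p = 0.90 from limma), so the level of this mRNA could not check the label, and counts per gene do not show an edit. By the study's methods, the knockout was checked by Sanger sequencing and, for the protein, by Western blotting. Over the 6 libraries KEAP1 followed most closely MRFAP1 (r = 0.98), TPCN1 (r = 0.98) and PRKAR1A (r = 0.98) among 7758 genes with a mean of at least 1000, none of which passed the test. These correlations are a description over 6 libraries of 2 lines. The sign of the KEAP1 change was not stable, with a log2 fold change of 0.034 without KYSE450 library 1 and 0.040 without KEAP1null-KYSE450 library 2.

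CUL3, the scaffold of the ligase, was at 7667, 6683.5 and 6718.5 in KYSE450 and at 5761, 5210.3 and 5639.5 in KEAP1null-KYSE450 libraries. All KEAP1null-KYSE450 values lay below all KYSE450 values. It fell by 0.34 on the log2 scale (SE 0.095, adjusted p = 0.0096 from limma), the smallest change among the 8 genes that passed. The call was lost after quantile normalization (log2 fold change -0.18, adjusted p = 0.11) and without KEAP1null-KYSE450 library 2 (-0.30, adjusted p = 0.058).

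RBX1, the RING subunit that brings in the ubiquitin-charged enzyme, was at 2906, 4052 and 4161 in KYSE450 and at 3272, 4173.5 and 4359 in KEAP1null-KYSE450 libraries. The first listed library was the lowest of each line, and the lines overlapped. The log2 fold change was 0.094 (95% interval -0.22 to 0.41, adjusted p = 0.62 from limma), and -0.073 without KYSE450 library 1. Without the first listed library of both lines it was 0.055 (adjusted p = 0.56).

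SQSTM1 was the most changed of the 10 genes. Its normalized counts were 17627, 15348 and 15856 in KYSE450 and 57420, 50161 and 52149 in KEAP1null-KYSE450 libraries. The lowest KEAP1null-KYSE450 library thus lay far above the highest KYSE450 library. The log2 fold change was 1.71 (SE 0.10, adjusted p = 4.3e-08 from limma), and 8.77% of all genes tested had a larger change in either direction. The SQSTM1 mRNA stood at 3.06, 2.94 and 3.08 times that of KEAP1 in KYSE450 libraries and at 10.0, 10.2 and 9.81 times in KEAP1null-KYSE450 libraries, as a ratio of normalized counts not scaled for length.

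Among the transcription factors, NFE2L2 itself was lower in the line without KEAP1. It was read at 11199, 11215 and 10616 in KYSE450 and at 8072, 7790.4 and 7980.0 in KEAP1null-KYSE450 libraries. The libraries of each line lay close together, with a coefficient of variation of 3.10% and 1.81%, and did not overlap. It fell by 0.47 on the log2 scale (SE 0.085, adjusted p = 6.3e-04 from limma), to 0.72 of its KYSE450 mean. By edgeR on the reads recovered from 4 of the libraries, the same change (-0.43) had an adjusted p of 0.058.

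The genes whose levels followed NFE2L2 most closely over the 6 libraries were TUFT1, PPTC7 and WDR47, each with r above 0.99 over lines that differ in all 3. TUFT1 fell from 3027 to 942 normalized counts, PPTC7 from 3792 to 2190.4 and WDR47 from 2248 to 602. NFE2L2 shares annotated exon bases with HNRNPA3 on the other strand of chromosome 2 (23.4% of the merged exons of NFE2L2), an abundant gene whose mean went from 33212 to 25896 normalized counts. Counting was not stated to use strand, so reads from the shared stretch cannot be assigned by these values.

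NFE2L1 fell more than NFE2L2. Its values were 16392, 12412 and 10066 in KYSE450 and 7018, 4771 and 4655 in KEAP1null-KYSE450 libraries. Its spread was the widest of the 10 genes, with the first listed library highest in both lines, and still the lines did not overlap. The log2 fold change was -1.24 (SE 0.18, adjusted p = 1.1e-04 from limma). Without the first listed library of both lines, it was -1.25 (adjusted p = 3.0e-08).

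BACH1, the repressor that leaves DNA when it binds heme, moved in the opposite direction. Its values were 1711, 1622 and 1556 in KYSE450 and 2945, 2855 and 2897 in KEAP1null-KYSE450 libraries. The lines lay wide apart, with a coefficient of variation of 4.78% and 1.55% within them. The log2 fold change was 0.83 (SE 0.093, adjusted p = 1.5e-05 from limma), below the log2 fold change of 1 of the study's thresholds.

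As NFE2L2 fell and BACH1 rose, the ratio of BACH1 to NFE2L2 counts went from 0.153, 0.145 and 0.147 to 0.365, 0.367 and 0.363. The mean log2 ratio was 1.30 higher in KEAP1null-KYSE450 libraries. The ratio of KEAP1 to NFE2L2 counts was 0.45 higher on the log2 scale, that of SQSTM1 to KEAP1 1.73 higher, and that of NFE2L1 to NFE2L2 lower by 0.77 (log2 difference -0.77). None of these ratios overlapped between the lines. An exact two-sided permutation test over the 20 assignments of 3 against 3 libraries gave p = 0.1 for each of the 5 ratios computed, also after Benjamini-Hochberg adjustment, which is the smallest p this design allows.

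The small MAF genes encode partners without a transactivation domain, and their mRNAs did not move together. MAFG was at 2686, 2329 and 2292 normalized counts in KYSE450 and at 5834, 4763 and 5852 in KEAP1null-KYSE450 libraries. Its log2 fold change was 1.17 (SE 0.11, adjusted p = 3.4e-06 from limma), without overlap between the lines.

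MAFK was at 3133, 2371 and 2404.5 in KYSE450 and at 1614, 1434 and 1567 in KEAP1null-KYSE450 libraries. It fell by 0.77 on the log2 scale (SE 0.12, adjusted p = 2.2e-04 from limma), and by 0.67 without the first listed library of both lines. MAFF, the least abundant of the 10 genes per length, was at 388, 415 and 300.2 in KYSE450 and at 149, 174 and 140.2 in KEAP1null-KYSE450 libraries. Neither gene overlapped between the lines. MAFF fell by 1.24 on the log2 scale (SE 0.18, adjusted p = 1.2e-04 from limma), the largest fall beside that of NFE2L1.

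Scaled by merged exon length, the 3 small MAF mRNAs summed to 1120 ± 141 normalized counts per kb in KYSE450 and 1418 ± 136 in KEAP1null-KYSE450 libraries (mean ± SD, n = 3), and the ranges of the lines overlapped. The make-up of that sum differed. MAFG made up 40.0% to 42.5% of it in KYSE450 and 72.1% to 74.8% in KEAP1null-KYSE450 libraries. MAFK made up 50.6% to 54.6% and then 23.5% to 25.5%, and MAFF 5.20% to 7.06% and then 1.67% to 2.46%. With the length of the MANE Select transcript in place of merged exons, MAFG took 34.1% ± 1.21 and 67.5% ± 1.82 (SD, n = 3) of the sum. The ratio of MAFG counts to those of MAFF plus MAFK was 1.99 higher on the log2 scale in KEAP1null-KYSE450 libraries, again with p = 0.1 in the exact permutation test.

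**Figure D2:**
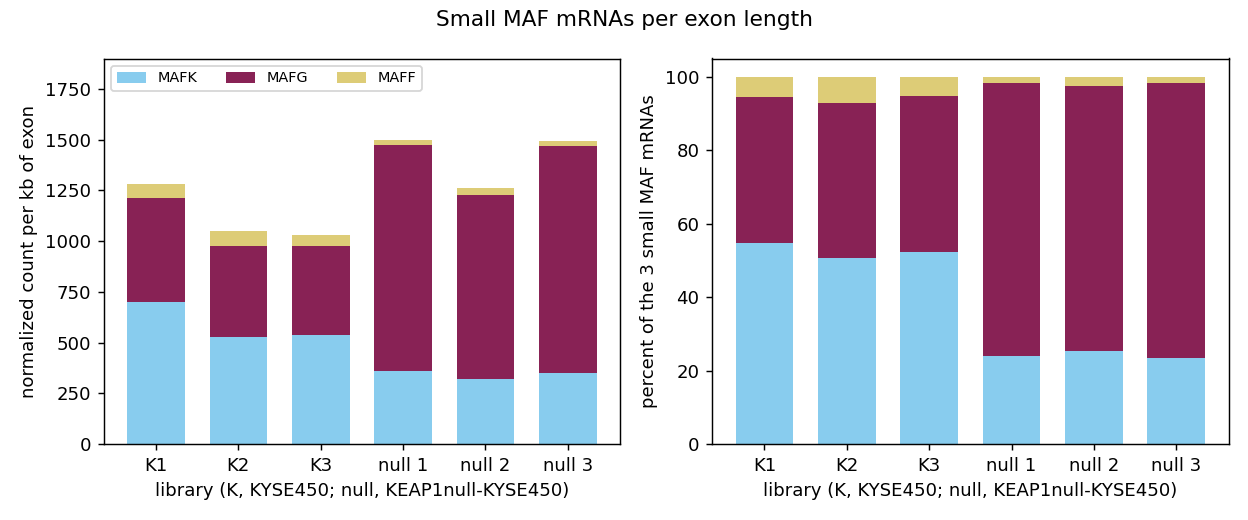
Left, normalized counts per kb of merged exon of MAFK, MAFG and MAFF stacked for each of the 6 libraries (K, KYSE450; null, KEAP1null-KYSE450); right, the same as percent of their sum. MAFG grows from 40.0% to 42.5% of the sum in KYSE450 to 72.1% to 74.8% in KEAP1null-KYSE450 libraries, while the sums overlap.

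Several small MAF counts could hold reads of overlapping genes. MAFK shares 18.1% of its merged exon bases with TMEM184A on the other strand, which went from 1099 to 729 normalized counts. MAFF shares 5.81% with PLA2G6 on the other strand, which went from 470.4 to 733, opposite to MAFF. MAFG shares 2.00% with SIRT7 on the same strand (1666 and 1780 normalized counts). SQSTM1 shares 21.0% with MRNIP (740.3 and 919 normalized counts), which is far less abundant than SQSTM1. It also shares 1.39% with the more abundant MGAT4B on the other strand (7682 and 8930 normalized counts).

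**Figure D3:**
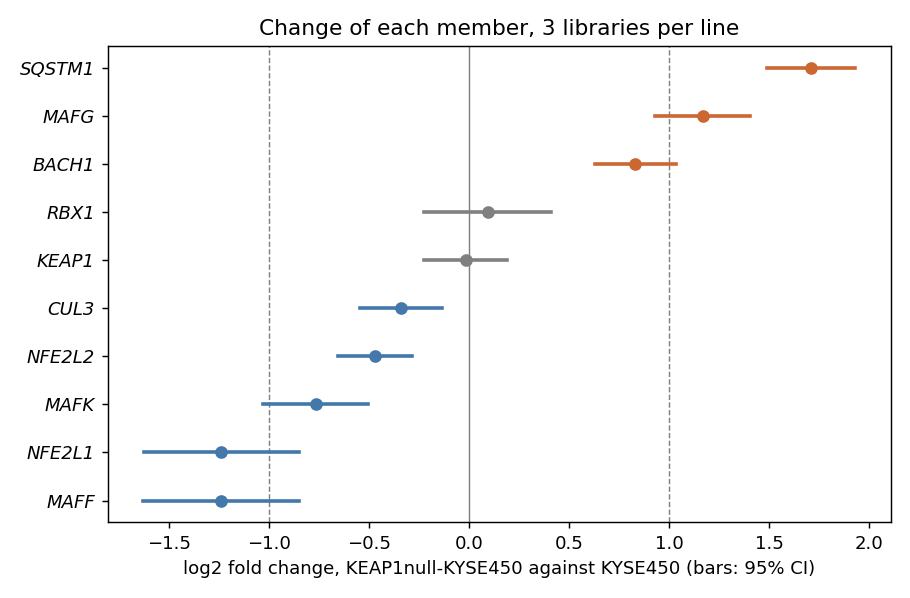
Log2 fold change of each gene with its 95% confidence interval from limma, sorted by size; orange, higher and blue, lower in KEAP1null-KYSE450 with an adjusted p under 0.05; grey, not called; dashed lines, log2 fold changes of -1 and 1. The points run from -1.24 (MAFF and NFE2L1) to 1.71 (SQSTM1), and only the intervals of KEAP1 and RBX1 cross 0.

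The order of levels between the genes depended on the length used. Per kb of merged exons, NFE2L1 (2202 ± 544 normalized counts per kb, SD, n = 3) and SQSTM1 (2160 ± 159) were highest in KYSE450 cells and their libraries overlapped, followed by KEAP1 (1505 ± 94) and RBX1 (1199 ± 225). NFE2L2 (735 ± 23), CUL3 (610 ± 49), MAFK (590 ± 96), MAFG (465 ± 41), BACH1 (213 ± 10) and MAFF (65.6 ± 10.7) followed, and CUL3 and MAFK overlapped. In KEAP1null-KYSE450 cells SQSTM1 (7066 ± 498) led and NFE2L1 (932 ± 226) stood at rank 5, overlapping with MAFG (1046 ± 119) at rank 4. Between SQSTM1 and MAFG stood KEAP1 (1489 ± 116) and RBX1 (1273 ± 188), where RBX1 overlapped with both KEAP1 and MAFG. NFE2L2 (531 ± 9.6), CUL3 (481 ± 25), BACH1 (378 ± 5.9), MAFK (344 ± 21) and MAFF (27.5 ± 3.17) followed without overlap between neighbours.

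NFE2L2 has 14975 bases of merged exons and 2446 in its MANE Select transcript. Per kb of that transcript, it ranked 2 in KYSE450 cells (4501 ± 140) behind SQSTM1 (5731 ± 421), and 3 in KEAP1null-KYSE450 cells (3249 ± 59) behind SQSTM1 (18748 ± 1321) and RBX1 (3366 ± 498), whose libraries overlapped with those of NFE2L2. NFE2L1 ranked 4 in KYSE450 cells by that length. SQSTM1 led in KEAP1null-KYSE450 cells and MAFF stood last in both lines by either length.

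The changes were set beside those of the 20 nearest expressed genes, 10 on each side, with a mean of at least 100. SQSTM1 and MAFG rose more than all 20 of their neighbours, whose medians were -0.13 and -0.18 on the log2 scale. MAFF fell more than all 20 of its own (median -0.10), and NFE2L1 more than 19 of 20 (median 0.16). Of the 20 neighbours of BACH1, 2 rose more, and 2 neighbours of NFE2L2 and 2 of MAFK fell more. CUL3 lay within its neighbourhood, where 7 of 20 genes fell more. Around KEAP1, 15 of 20 genes had a lower fold change than KEAP1, with a median of -0.28.

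**Figure D4:**
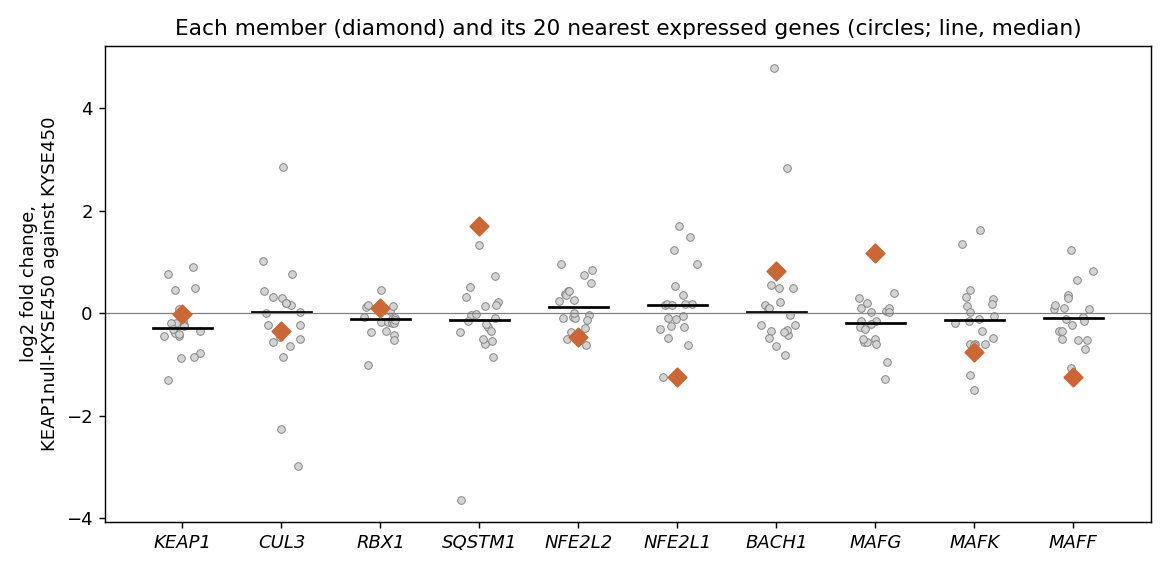
Log2 fold change (KEAP1null-KYSE450 against KYSE450) of each gene of the switch (orange diamond) and of its 20 nearest genes with a mean of at least 100 normalized counts (grey circles, spread sideways for sight), with the median of the neighbours as a black line. The diamonds of SQSTM1 and MAFG lie above and that of MAFF below all their circles, and those of KEAP1, CUL3 and RBX1 lie among them.

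The machinery that activates the CUL3 ligase was measured next. Of 21 genes for neddylation, the COP9 signalosome and cullin exchange, 2 rose and 7 fell (median log2 fold change -0.13). Among all genes tested, 24.3% were higher and 25.5% lower, with a median of 0.0041. All 21 genes had a mean of at least 100. Among the 12341 genes with such a mean, 2784 were higher and 3931 lower, with a median of -0.080. Both backgrounds also stand beside the lists below. DCUN1D5 (-0.54) and UBE2M (-0.48), which help attach NEDD8 to cullins, fell, as did the exchange factor CAND1 (-0.42), while SENP8, a NEDD8 protease, rose (0.80). Of 32 other BTB adaptors that share CUL3 with KEAP1, 4 rose and 8 fell (median -0.19). KLHL3 rose from 246 to 733.5 normalized counts (log2 fold change 1.60) and KLHL5 fell from 14453 to 5607 (-1.37). After quantile normalization the ligase list turned to 5 higher and 3 lower (median 0.017). Both edgeR and DESeq2 called 2 genes lower in each list. The ligase list had 4 genes lower without KYSE450 library 3 or without KEAP1null-KYSE450 library 2, and the adaptor list had 5 lower without KYSE450 library 2 and 4 without KEAP1null-KYSE450 library 2 or 3.

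Of 18 other proteins known to bind KEAP1, or NRF2 in competition with it, 1 rose and 8 fell (median -0.25). The stress sensor SESN2 rose (0.71). The cell cycle inhibitor CDKN1A (-1.22), which binds NRF2, the NF-kB inhibitor NFKBIE (-1.01) and the replication factor MCM3 (-0.64) fell. Of 17 genes listed for turnover of NRF2 without KEAP1, 2 rose and 6 fell (median -0.10). Whether each of them acts on NRF2, and does so without KEAP1, was not tested. SKP1, a subunit of the SCF ligase, rose (0.69) and TRIM21 (-0.50) and the kinase subunit CSNK2A1 (-0.45) fell, but edgeR called 0 of the 17 genes lower and DESeq2 called 2. Without KEAP1null-KYSE450 library 2 or 3, 2 or 3 of them were lower, and after quantile normalization 2 were higher and 2 lower (median 0.071).

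Around SQSTM1, 1 of 21 autophagy genes rose and 4 fell (median -0.078). The receptor OPTN fell from 3941 to 2177 normalized counts (-0.85), the low-level MAP1LC3B2 fell from 44.4 to 20.4 (-1.13), and PRKCZ rose (0.38). The selective autophagy receptors NBR1 (log2 fold change 0.02), TAX1BP1 (-0.04) and CALCOCO2 (0.17) did not pass the test. Without KEAP1null-KYSE450 library 2, 2 genes of the list were lower. The list had 4 higher and 3 lower after quantile normalization (median 0.029), 0 and 1 by edgeR, and 0 and 2 by DESeq2.

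Among the relatives of NRF2, BACH1 and the small MAFs, 5 of the 6 listed could be tested, 1 rose and 2 fell. NFE2L3, which encodes NRF3, fell from 2246 to 436 normalized counts (log2 fold change -2.39, adjusted p = 3.1e-07 from limma), more than any of the 10 genes. Large MAF genes moved in both directions at low levels: MAFA rose from 45.4 to 119 normalized counts, while MAF fell from 40.3 to 1.97, which is under the floor of 3 reads in its mean. BACH2 (98.9 and 64.4) and NRL (82.3 and 58.6) did not pass, and NFE2 (4.19 and 2.37) was too low to be tested. After quantile normalization, and with eBayes without trend, all 5 passed, 1 higher and 4 lower. With a mean of at least 100, only 1 of the relatives could be tested.

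Of 18 other factors that meet NRF2 on DNA or in the nucleus, 3 rose and 10 fell (median -0.44). The AP-1 genes JUNB (-1.02), JUND (-0.98) and JUN (-0.85) fell, and RXRA, whose product binds NRF2 and represses it, rose from 3312 to 7658.5 normalized counts (1.22). CHD6 (0.76) and NCOA3 (0.49), a chromatin remodeller and a coactivator, also rose.

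Beside the fall of NFE2L1, 2 of 14 genes that process NRF1 rose and 6 fell (median -0.16). STT3A (-0.69), UBE4A (-0.52) and SEL1L (-0.41), for glycosylation and degradation at the endoplasmic reticulum, fell, and OGT (0.40) and HERPUD1 (0.27) rose. Without KEAP1null-KYSE450 library 2 or 3, 3 of the 14 genes were lower, and by edgeR 1. After quantile normalization 2 were higher and 2 lower (median -0.0033). Of 33 genes of the 26S proteasome, which NRF1 is known to drive, none rose and 22 fell (median -0.42), and none fell by a log2 fold change of 1. PSMD4 (-0.93), PSMD13 (-0.89) and PSMC3 (-0.80) fell most. The number lower was between 14 (edgeR) and 26 over the other settings, and 1 gene was called higher in 2 of them. After quantile normalization the median was -0.26. Whether the fall of NFE2L1 bears on the proteasome genes was not tested, and NRF1 protein was not measured in these libraries.

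The listed target genes of NRF2 and BACH1 moved in 1 direction. All 31 canonical NRF2 targets of the list rose, 29 of them past a log2 fold change of 1, with a median of 2.71, and the aldo-keto reductases AKR1C3 (9.54), AKR1C1 (9.50) and AKR1B10 (9.17) rose most. All 8 listed genes that BACH1 is known to repress, most of them for heme and iron, rose, beside the rise of BACH1 mRNA itself. Their median was 1.88. Of these, GCLM (3.36) and SLC7A11 (2.57) are not heme or iron genes and are also on the NRF2 list. FECH, the last enzyme of heme synthesis, rose from 1996.5 to 11037 normalized counts (2.47). BACH1 and NRF2 compete on the same elements, so this list cannot tell their effects apart. Both lists were written with results of these libraries known, so their direction is not independent evidence.

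**Figure D5:**
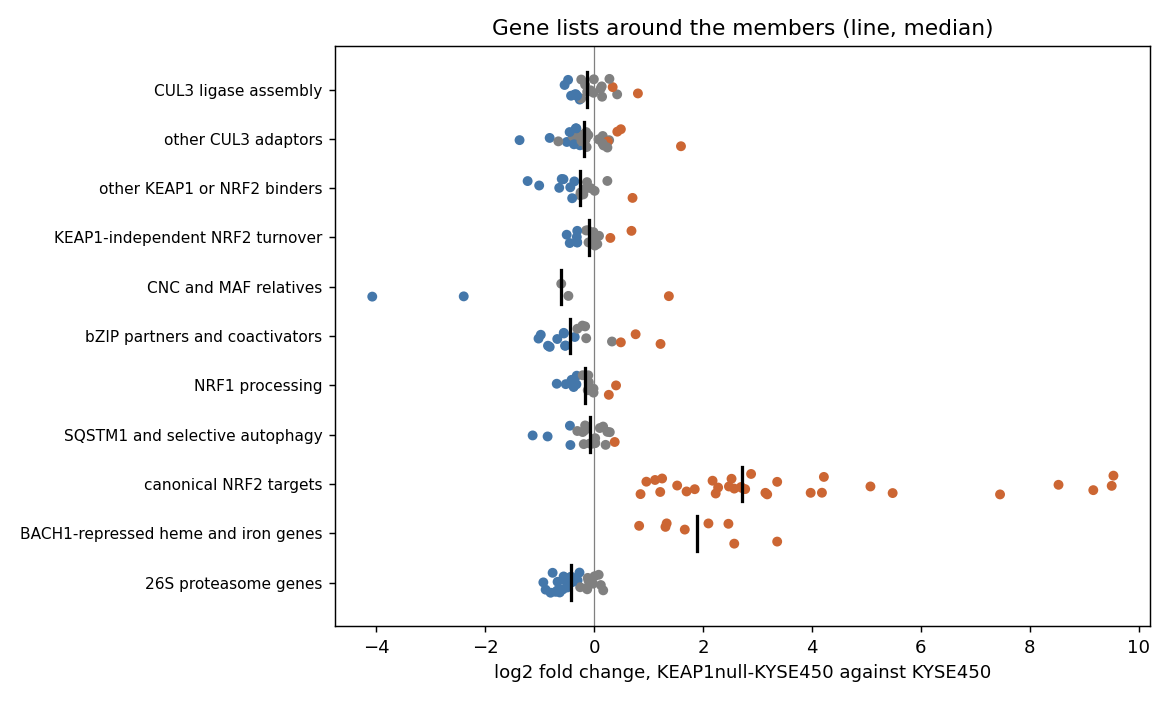
Log2 fold change (KEAP1null-KYSE450 against KYSE450) of each tested gene of 11 lists around the switch; orange, higher and blue, lower with an adjusted p under 0.05 in limma; grey, not called; black line, median of the list, and points are spread vertically for sight. The 31 NRF2 targets and 8 BACH1-repressed genes lie right of 0, 22 of the 33 26S proteasome genes are blue (median -0.42), and the other lists lie on both sides.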

How the data were processed

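Total RNA of KYSE450 and KEAP1null-KYSE450 cells was sequenced (3 libraries each). By the study's methods, the authors used STAR to align quality-filtered reads to hg38 and featureCounts to count them by gene; the submitters' processing notes name FastQC (0.11.5), cutadapt (1.12), STAR (2.6.90c) and featureCounts (1.5.1). They deposited normalized counts, a signal per gene. Strand use in counting was not given in the sources used here. In 4 of 6 libraries 100% of the values returned to whole reads with 1 factor per library (tolerance 0.1 read), 53027359 to 61543442 per library. For the other libraries reads were not recovered. Of 58884 rows, 273 had no symbol and entered all totals.

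Lines were compared with limma (3.58.1, R 4.3.3; eBayes with trend, two-sided) on log2(normalized count + 1) over 16701 genes whose mean reached 10, with Benjamini-Hochberg adjustment; fold changes on this scale understate low genes. A gene rose or fell at an adjusted p under 0.05; the study's log2 fold change of 1 is given beside it. edgeR (4.0.16) and DESeq2 (1.42.0) were run on the 4 libraries with recovered reads. Ratios were tested in scipy (1.17.1). Models were tested on simulated data. Positions, exon lengths and motif windows came from gencode v44 and hg38.

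The 10 genes were given, and the gene lists and motifs were chosen with earlier results of these data known. Named were the 10 genes, up to 3 genes of each list per direction with the largest change at an adjusted p under 0.05, the 3 genes most correlated with KEAP1 and NFE2L2, relatives of the MAF and CNC families, and overlapping genes. NBR1, TAX1BP1 and CALCOCO2 were named after their values were seen, as the other autophagy receptors of the list, and so were FECH as the largest change of its list outside the NRF2 list and the markers COL1A1, PECAM1, TP63 and EPCAM. The list of MAF and CNC relatives is not complete, and 1 relative is not reported here.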

Additional observations from a re-analysis of the deposited data

How the results depend on the processing

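No paired analysis was possible because the columns carry no replicate number. Over 16 alternatives (a pseudocount of 0.1 or 10, all genes or those with a mean of 100 or more, rescaled totals, quantile normalization, eBayes without trend, each library left out, both first listed libraries left out, which was chosen after seeing the data, and edgeR and DESeq2 on 4 libraries), SQSTM1, MAFG, BACH1, NFE2L1, MAFK and MAFF kept their direction and an adjusted p under 0.05. The log2 fold change of SQSTM1 lay between 1.65 and 1.82, and that of NFE2L1 between -1.43 and -1.05. KEAP1 changed sign with rescaled totals (0.016) and quantile normalization (0.14), and lay between -0.072 and 0.040 with single libraries left out. RBX1 lay between -0.073 and 0.22 with single libraries left out, and below 0 without KYSE450 library 1. CUL3 missed the threshold after quantile normalization (-0.18), by edgeR (-0.36, adjusted p = 0.11) and DESeq2 (-0.39, adjusted p = 0.067), and lay between -0.38 and -0.28 with single libraries left out. NFE2L2 missed it by edgeR (-0.43). The count tests used 4 libraries; beyond that the cause was not tested. The 5 ratios were recomputed with a pseudocount of 10 and with each library left out, and kept their direction in these 7 settings. Past both thresholds, 2045 genes were higher and 999 lower (67.2% higher among those called), with 875 higher at a mean of at least 100 (56.2%), 51.8% higher after quantile normalization, and 626 higher and 395 lower in a test against a fold change of 2. At an adjusted p alone, edgeR called 2472 genes lower and DESeq2 2617 higher and 2732 lower, against 4060 higher and 4251 lower. With 3 libraries per line, differences within the intervals given for KEAP1 and RBX1 were not detectable.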
